A study of Mus musculus with 2 samples.

Results

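The T and NK cells of the liver described here were carried along in 2 preparations of liver sinusoidal endothelial cells (LSEC), the fenestrated cells that line the hepatic capillaries. A barcode was a member when it held at least 1500 unique molecular identifiers (UMIs, each standing for 1 captured RNA molecule) and 750 genes, at least 3 UMIs summed over Cd3e, Cd3d, Cd3g, Trbc2, Nkg7 and Klrd1, at least 1 UMI of Ptprc, and at most 1 UMI summed over the B cell gene Cd79a and the macrophage genes Adgre1 and Clec4f. This rule found 110 members among the 10384 barcodes that passed the limits on UMIs and genes, of 12755 barcodes in all. The control library gave 29 members of 4961 passing barcodes and the Maf LSEC-KO library 81 of 5423. The members were thus selected on measured values, and the levels of the rule genes below are descriptions.

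Maf LSEC-KO mice carry 2 floxed alleles of Maf, which encodes the transcription factor c-Maf, and a Clec4g-iCre transgene. The Clec4g promoter drives Cre in LSEC, so T and NK cells are not the cells in which the deletion was directed. The control library is labelled WT, and the controls of the study were Cre-negative littermates with floxed Maf. Each library was made from cells pooled from 3 mice after a density gradient and selection with magnetic beads against CD146, an endothelial surface protein encoded by Mcam. The study used female and male mice of 3 and 6 months, and the sex and age behind these libraries are not given in the sources used here. With 1 library per group no test between the groups was possible, and no p-value is given. All intervals are exact 95% intervals that cover counting error only, not differences between single members, mice or preparations.

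T cells recognise peptide, lipid or metabolite antigens through a receptor whose alpha and beta or gamma and delta chains signal through the CD3 proteins. Natural killer (NK) cells lack that receptor and balance activating against inhibitory receptors of the Ncr1, Klrb1c, Klrk1, Klrd1 and Klra (Ly49) kinds. Both kill targets with perforin and granzymes. The sinusoids hold resident populations of T cells and innate lymphocytes that crawl along the endothelium and are retained there by CXCR6, beside recirculating NK cells that pass through with the blood and exit tissue through the receptor S1PR5.

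Members had a median of 7698 UMIs in the control (1718 to 26901) and 7436 in the Maf LSEC-KO library (2314 to 72418), and medians of 2387 and 2413 genes. The passing barcodes of the libraries differed more in depth, with medians of 8573 and 13441 UMIs. Among the passing barcodes, 4481 and 4205 were called endothelial, with at least 10 UMIs over Clec4g, Stab2, Kdr, Ptprb, Cdh5 and Pecam1 and none of Ptprc or of the 6 rule genes. These serve below as the background that free RNA gives in cells that should lack a lymphocyte gene. The libraries had 10 barcodes in common and no member was among them. At the edge of the rule, 2 control and 4 Maf LSEC-KO barcodes had 2 UMIs of the rule genes and were left out, no member had 3, and the members nearest to the limit had 5 UMIs in the control (3 barcodes) and 4 in the Maf LSEC-KO (3 barcodes).

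The genes that set the members apart from endothelial barcodes, the rule genes aside, were those of cytotoxic lymphocytes. Nkg7 and Klrd1 of the rule are themselves genes of such cells, and endothelial barcodes held no UMI of the rule genes by definition. The lead of genes expressed along with them is thus partly set by the rule, and the ranking is a description. By the ratio of levels to endothelial barcodes, the leading genes outside the rule were Klra4, Ncr1, Klra8, Prf1, Klra9, Gzmb, Xcl1 and Gzma. Levels are given in CPM, the UMIs of a gene per 1000000 UMIs of the same barcodes, with mitochondrial genes and genes of ribosomal proteins left out. Gzma, which encodes granzyme A, stood at 5098 CPM over all members against 0.994 CPM in endothelial barcodes, and Prf1, the pore-forming perforin, at 551 against 0.0951 CPM. Klra4 and its neighbours belong to a family of near-identical genes in which reads can be assigned to the wrong copy, so the levels of single Klra genes are uncertain, and the same holds for Trbc1 and Trbc2.

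The members fell into 3 main sets. Cd3-positive members, with at least 2 UMIs over the CD3 subunit genes Cd3e (chr9:44998740-45009627, mm10, minus strand), Cd3d and Cd3g, numbered 15 (control) and 29 (Maf LSEC-KO). The NK gate, with no UMI of these and at least 1 of the NK receptor genes Ncr1 (chr7:4337724-4345164, plus strand) or Klrb1c (chr6:128778485-128789215, minus strand), held 10 and 37. A further 3 and 15 members had a UMI of neither kind, and 1 control member had 1 Cd3 UMI. Cd3-positive members were 51.7% of control members (32.5 to 70.6) and 35.8% of Maf LSEC-KO members (25.4 to 47.2), and NK gate members were 34.5% (17.9 to 54.3) and 45.7% (34.6 to 57.1). These intervals overlap widely for both sets.

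**Figure D1:**
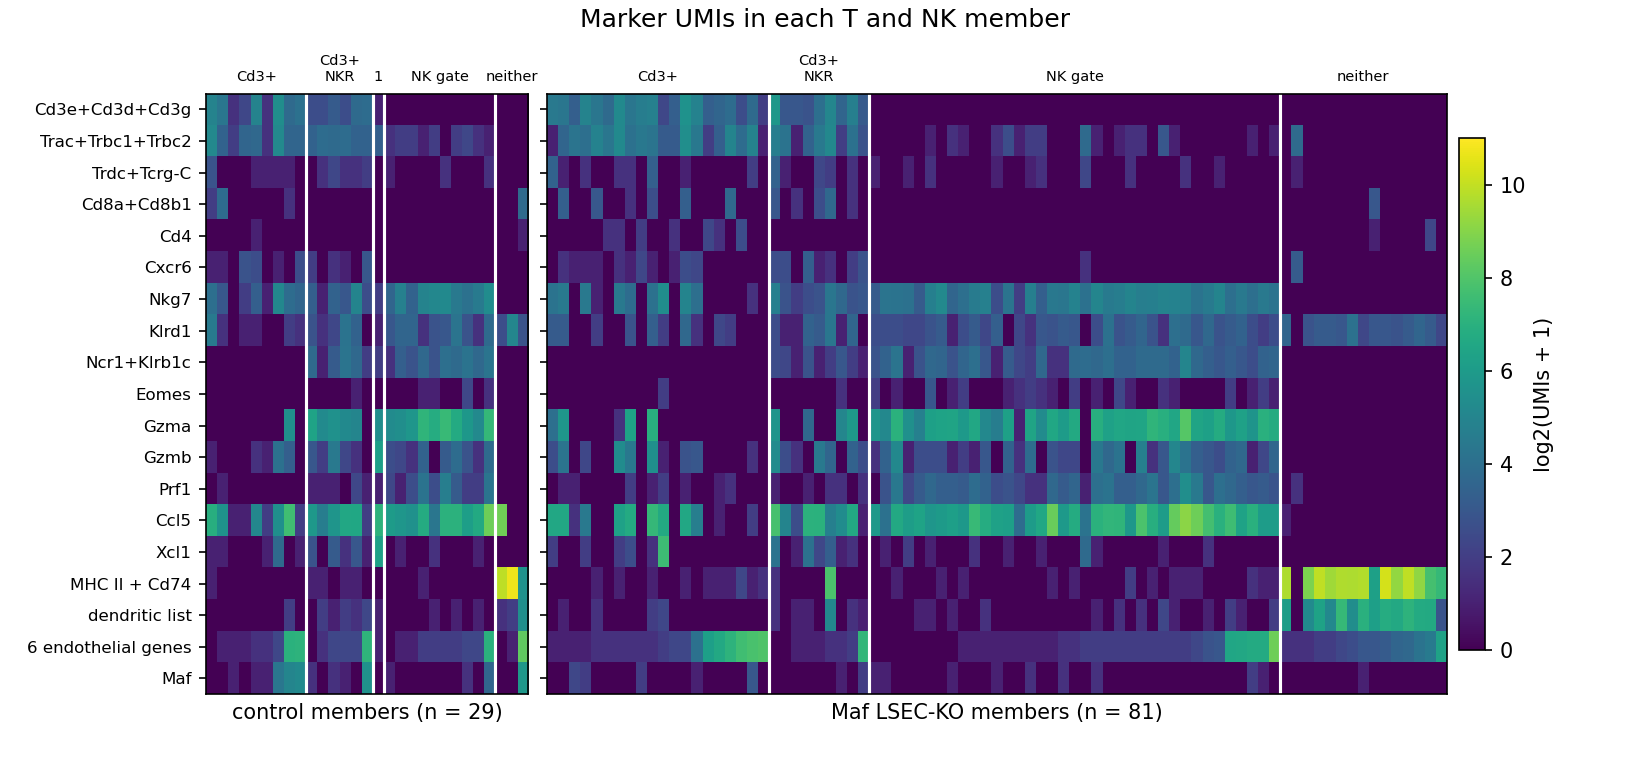
UMIs of marker genes or gene sums (rows) in each member (columns) of the control (29 members, left) and Maf LSEC-KO library (81 members, right), coloured by log2(UMIs + 1) and split into Cd3-positive members without and with an NK receptor UMI (NKR), the control member with 1 Cd3 UMI (1), the NK gate and neither gate. The MHC class II and dendritic list signal lies mostly in the block of neither gate, where Nkg7 and Gzma are at 0.

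The members of neither gate went against the T and NK label. Klrd1, which encodes the CD94 chain of NK receptors (chr6:129591782-129598775, plus strand), was the only rule gene with UMIs in 17 of these 18 members. None of them had a UMI of Nkg7, Gzma or Gzmb (0 of 3 and 0 of 15, with exact upper limits of 70.8% and 21.8% for the share of members with a UMI). In their place stood genes of antigen presentation: Cd74, the invariant chain of MHC class II, reached 25207 CPM against 190 CPM in the other 92 members, and H2-Aa reached 10491 against 66.2 CPM. Summed UMIs of H2-Aa, H2-Ab1, H2-Eb1 and Cd74 were 48, 952 and 1694 in the 3 control members and 0, 692 and 1256 at the lowest, median and highest of the Maf LSEC-KO members. Cd209a, a lectin gene of the dendritic cell list, was detected in 1 of 3 control members with 11 UMIs and in 12 of 15 Maf LSEC-KO members with up to 158 UMIs (median 63). Siglech, a marker of plasmacytoid dendritic cells, was detected in 1 control member with 23 UMIs and in 2 Maf LSEC-KO members with 62 and 68 UMIs. A gene of the 7-gene dendritic list was detected in 3 of 3 and 14 of 15 members. It was also detected in 6 of 15 and 10 of 29 Cd3-positive and in 3 of 10 and 13 of 37 NK gate members. The control members of neither gate held 2, 3 and 44 UMIs of the list, and the Maf LSEC-KO ones 0, 80 and 162 at the lowest, median and highest. The exception among the members of neither gate was 1 Maf LSEC-KO member with no Klrd1 or MHC class II UMI, 13 UMIs of Trac, Trbc1 and Trbc2, and 8 of Cxcr6. These members are called below the members of neither gate. The values of the Cd3-positive and NK gates leave them out, and those over all members include them.

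Both lymphocyte sets also held barcodes with much endothelial RNA. Members split into those with 22 or fewer and those with 73 or more UMIs of the 6 endothelial genes, and a limit of 50 UMIs, chosen after the values were seen, separated them. Above it were 5 control members with 129 to 318 endothelial UMIs and 13 Maf LSEC-KO members with 73 to 383. They were deep barcodes, of 14698 to 26901 UMIs in the control and 15332 to 72418 in the Maf LSEC-KO. Levels in the gates are given for the 12 and 22 Cd3-positive and the 9 and 32 NK gate members under the limit. Ratios given below with the endothelial-rich members also take in their other RNA, to an unequal degree in the 2 libraries. In the Cd3-positive gate these were 3 control members of 14698 to 17109 UMIs and 7 Maf LSEC-KO members of 15332 to 41879.

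T and NK members made up a larger share of the Maf LSEC-KO preparation. They were 0.585% of passing barcodes in the control (0.392 to 0.838) and 1.49% in the Maf LSEC-KO (1.19 to 1.85), a ratio of 2.56 (1.65 to 4.05). The NK gate had 0.202% against 0.682%, a ratio of 3.38 (1.65 to 7.63), and the Cd3-positive members 0.302% against 0.535%, a ratio of 1.77 (0.918 to 3.55). The intervals of these 2 ratios overlap, and that of the Cd3-positive members includes 1. Members of neither gate had the highest ratio, 4.57, with the widest interval (1.29 to 24.6). Without members of neither gate and without those above the endothelial limit the shares of the Cd3-positive and NK gates together were 0.423% and 0.996%, a ratio of 2.35 (1.40 to 4.10).

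Barcodes with a Ptprc UMI, the pan-leukocyte gene for CD45, were 7.92% (control) and 16.2% (Maf LSEC-KO) of passing barcodes, a ratio of 2.05 (1.82 to 2.32). Passing barcodes of the Maf LSEC-KO library were deeper, with a median of 13441 against 8573 UMIs, and the share of barcodes that hold a Ptprc UMI from free RNA was not separated from this. Among Ptprc barcodes the members were 7.38% (5.0 to 10.4) and 9.19% (7.37 to 11.3), a ratio of 1.25 (0.806 to 1.98) whose interval includes 1. Barcodes with macrophage marker UMIs rather than the T and NK rule had a ratio of 2.42 (2.0 to 2.93) over passing barcodes and those with B cell marker UMIs 1.29 (0.862 to 1.94). The beads against CD146 enriched endothelial cells before sequencing, so these are shares of what passed that selection and not of the cells in the liver. More lymphocytes in the tissue, fewer endothelial cells recovered and a looser selection cannot be told apart from these shares.

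**Figure D2:**
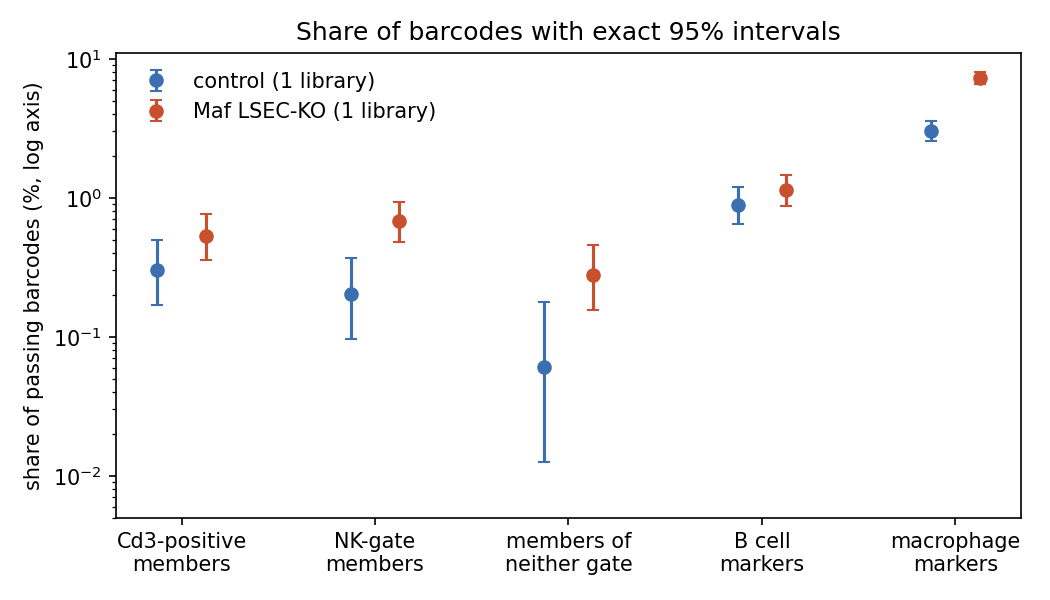
Share of passing barcodes (percent, log axis) in the control and the Maf LSEC-KO library for Cd3-positive members, NK gate members, members of neither gate, and barcodes with B cell or macrophage markers, with exact 95% intervals for counting error and 1 library per group. The NK gate stands at 0.202% and 0.682% with intervals that do not overlap, and the intervals of the Cd3-positive members (0.302% and 0.535%) overlap.

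The homing and maturation genes read in the NK gate were those known of recirculating NK cells. Among the 9 control and 32 Maf LSEC-KO members, Prf1 was detected in 9 and 31, Itgam (the integrin CD11b) in 7 and 25, S1pr5 in 6 and 20, Itga2 (the integrin CD49b) in 5 and 18, and Eomes, a transcription factor of mature NK cells, in 3 and 16. Cxcr6 (chr9:123806475-123811760, plus strand) was detected in 0 of 9 and 1 of 32. The 1 member with Cxcr6 held 2 UMIs of it, 13 of Trac, Trbc1 and Trbc2, and 0 of Klrd1, Gzma, Gzmb and Eomes. The gate thus admits a member unlike the others in these genes. Itga1, the integrin CD49a of liver-resident innate lymphocytes, was detected in 1 of 9 and 5 of 32 members, but in 90.8% and 87.2% of endothelial barcodes, so these few UMIs are not read as expression in the NK gate. S1pr5 was detected in 0.0223% and 0.0476% of endothelial barcodes and Cxcr6 in 0.201% and 0.119%, with median depths of 8658 and 14760 UMIs against 5697 and 5295 in the NK gate.

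In Cd3-positive members the 2 genes stood the other way round. Cxcr6 was detected in 8 of 12 control and 17 of 22 Maf LSEC-KO members, at 323 and 423 CPM, while S1pr5 was detected in 0 of 12 and 1 of 22, Itgam in 0 and 1, and Eomes in 1 and 2. Itga1 was detected in 7 of 12 and 13 of 22 members, a larger share than in the NK gate of either library, at 453 and 343 CPM and below the 954 and 417 CPM of endothelial barcodes. Thinned to 1500 UMIs per barcode, the expected share with Cxcr6 was 28.2% of control and 34.7% of Maf LSEC-KO Cd3-positive members, and 0% and 1.27% in the NK gate. This division of Cxcr6 and S1pr5 between the gates stood in both libraries.

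**Figure D3:**
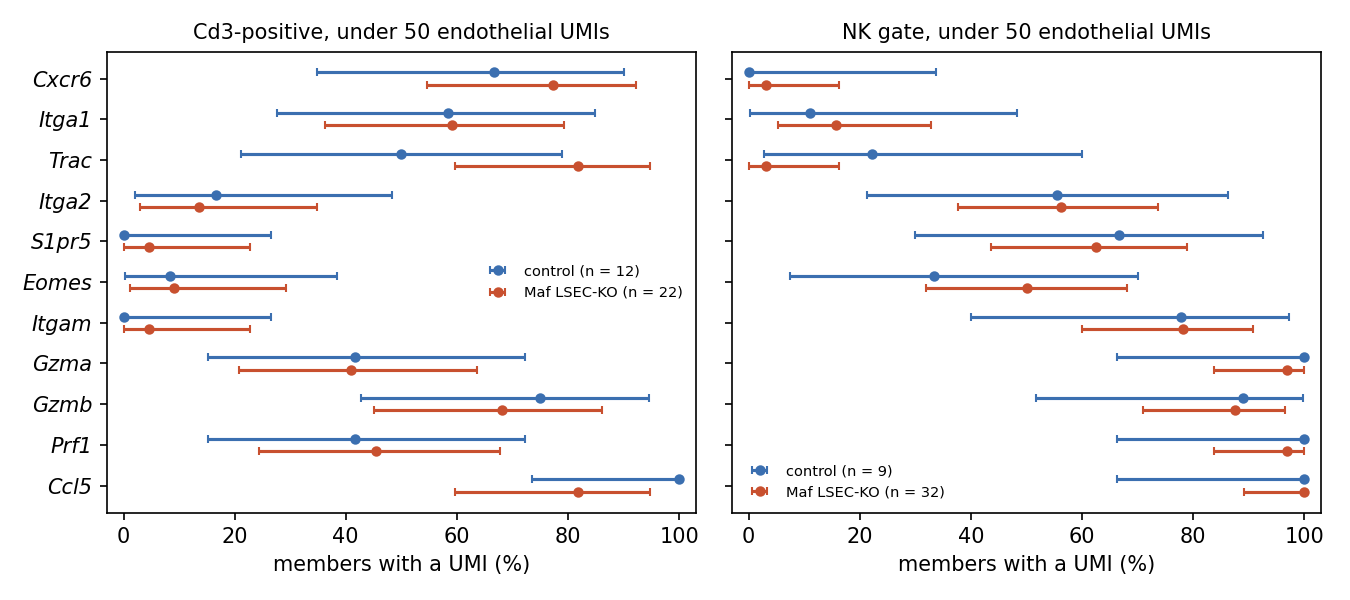
Percent of members with a UMI of each gene in the Cd3-positive and NK gates under 50 endothelial UMIs, with exact 95% intervals, for the control and Maf LSEC-KO libraries. Cxcr6 lies in the Cd3-positive gate (8 of 12 and 17 of 22) and S1pr5 in the NK gate (6 of 9 and 20 of 32).

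Of the cytotoxic genes of NK gate members, Gzma and Nkg7 stood at like levels in both libraries, and Prf1 and Gzmb above the control by less than 2-fold. Gzma (chr13:113093825-113100981, minus strand) had 35, 56 and 169 UMIs in the lowest, median and highest control member and 0, 83 and 274 in the Maf LSEC-KO members. Its level was 18577 and 17802 CPM, a log2 ratio (here and below the Maf LSEC-KO level over the control level) of -0.06 (-0.18 to 0.06). Nkg7, a granule membrane protein gene of the rule, had 10, 22 and 36 against 3, 22 and 35 UMIs, and a log2 ratio of -0.14 (-0.37 to 0.10). The member ranges overlap for both genes. Prf1 was at 1742 and 2347 CPM (log2 ratio 0.43, interval 0.06 to 0.82) and Gzmb, granzyme B, at 1252 and 1868 CPM (0.58, interval 0.14 to 1.04), both above the control by more than counting error and by less than 2-fold. None of the 9 measured genes of the list of cytotoxic granules and effectors differed by 2-fold or more in the NK gate.

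Over all 773 genes with a mean of at least 200 CPM in the NK gate, 15 (1.94%) were at least 2-fold higher in the Maf LSEC-KO and 26 (3.36%) at least 2-fold lower, with a median log2 ratio of -0.11. Of the 177 genes at least 4 times as high as in endothelial barcodes 4 (2.26%) were higher and 9 (5.08%) lower. Of the 20 measured NK receptors and adaptors 0 were higher and 1 was lower, with a median of 0.00, against 3.36% of all genes measured in the gate lower. The receptors Ncr1, Klrb1c, Klrk1 and Klre1 differed by less than counting error: Ncr1 (NKp46) had a log2 ratio of -0.10 (-0.60 to 0.42), Klrb1c (NK1.1) 0.02 (-0.45 to 0.51), Klrk1 (NKG2D) -0.12 (-0.53 to 0.32) and Klre1 0.02 (-0.41 to 0.47).

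The receptor that stood lower was Klra9 (chr6:130178675-130193112, minus strand), of the Ly49 family. It had 71 UMIs in 7 of 9 control members (0, 6 and 20 at the lowest, median and highest) and 79 UMIs in 18 of 32 Maf LSEC-KO members (0, 1 and 9). The levels were 1742 and 549 CPM, a log2 ratio of -1.67 (-2.15 to -1.18). The highest control members exceeded all Maf LSEC-KO members, but the ranges overlap. Klra8 (0.09, interval -0.42 to 0.64) and Klra4 (0.40, interval -0.12 to 0.96) did not stand lower. The ratio was between -1.68 and -1.36 under its 4 alternatives, the lower size being that without the top member of each library. Single NK cells are known to express only some genes of this family.

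The genes furthest above the control in the NK gate were Irf8 and Bcl2. They were picked after the values were seen, by the rank of the ratio among genes at least 4 times as high as in endothelial barcodes. Irf8 (chr8:120736358-120756694, plus strand) encodes a transcription factor of the interferon regulatory family. It had 14 UMIs in 6 of 9 control members (0, 1 and 4 at the lowest, median and highest) and 210 UMIs in 28 of 32 Maf LSEC-KO members (0, 4.5 and 34). The level was 344 against 1458 CPM, a log2 ratio of 2.09 (1.31 to 2.98), and endothelial barcodes had 69.9 and 74.1 CPM. Thinned to 1500 UMIs, 30.2% and 64.2% of NK gate members were expected to hold an Irf8 UMI.

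Bcl2 (chr1:106538178-106714274, minus strand), which protects lymphocytes from apoptosis, had 5 UMIs in 4 of 9 control members (highest 2) and 72 in 24 of 32 Maf LSEC-KO members (highest 10). The level was 123 against 500 CPM, a log2 ratio of 2.03 (0.74 to 3.69). Both ratios were smaller with the endothelial-rich members put back, 1.41 for Irf8 and 0.79 for Bcl2. The only such control NK member held 8 Irf8 and 7 Bcl2 UMIs, against 14 and 5 in the other 9 members together. The 5 such Maf LSEC-KO NK members held 5 to 14 Irf8 and 1 to 8 Bcl2 UMIs in barcodes of 15512 to 72418 UMIs. Their other RNA lowers the Maf LSEC-KO CPM of both genes, and the parts of the 2 libraries were not separated. The control values of both genes rest on few UMIs. Without the top member of each library the ratios were 2.32 and 2.55.

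Chemokine ratios in the NK gate moved with single members and with the endothelial-rich members put back. Ccl5 (RANTES), present in each of the 41 NK gate members, had 19, 70 and 135 UMIs in the control and 14, 87 and 545 in the Maf LSEC-KO at the lowest, median and highest member. Its log2 ratio was 0.70 (0.59 to 0.82), and -0.06 with the endothelial-rich members. Of these the control one held 382 Ccl5 UMIs. The 5 Maf LSEC-KO ones held 66 to 193, in deep barcodes whose other RNA lowers the CPM of that library. Ccl4 (MIP-1β) had a log2 ratio of 1.09 (0.42 to 1.85), but 113 of its 151 Maf LSEC-KO UMIs came from 1 member, and without the top member of each library the ratio was -0.38. Ccl3 (MIP-1α) had 13 UMIs in 4 control and 93 in 22 Maf LSEC-KO members (1.02, interval 0.17 to 1.98), and its ratio was 0.00 with the endothelial-rich members. Ly6c2, a surface antigen of memory T cells and some NK cells, had 45 UMIs in 4 control and 67 in 15 Maf LSEC-KO NK gate members (-1.25, and -0.41 without the top member of each library). In Cd3-positive members it had 24 UMIs in 4 and 161 in 6 members (1.87, and 0.13 with the endothelial-rich members), and the difference between the gates was not tested.

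**Figure D4:**
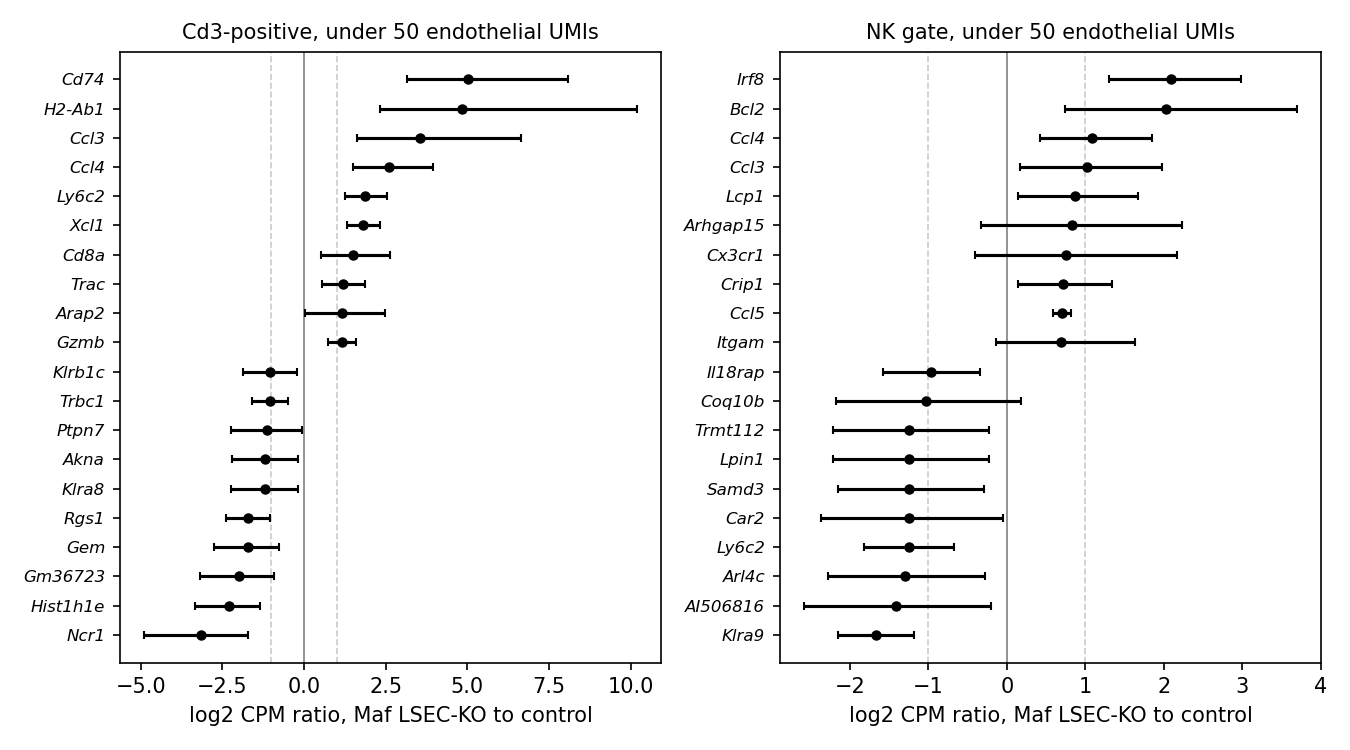
Log2 ratio of CPM of the Maf LSEC-KO to the control library for the 10 highest and 10 lowest genes of the Cd3-positive (left) and NK gates (right) under 50 endothelial UMIs, among genes of at least 200 CPM and 4 times the endothelial level, with exact 95% intervals for counting error and dashed lines at 2-fold. Irf8 (2.09) and Klra9 (-1.67) lie at the ends in the NK gate, and Cd74 (5.03) and Ncr1 (-3.14) in the Cd3-positive gate.

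Cd3-positive members were a mixed set in both libraries, and whether all of them are T cells was not tested. Trac, Trbc1 or Trbc2, the constant chains of the alpha-beta receptor, was detected in 15 of 15 control and 29 of 29 Maf LSEC-KO members. Trac itself was detected in 9 of 15 and 22 of 29. Trbc2 is a rule gene, and a UMI of these genes was also detected in 9 of 10 and 17 of 37 NK gate members. Among Cd3-positive members Cd8a or Cd8b1 was detected in 3 and 11 and Cd4 in 1 and 7, and no member had both kinds. Of them 11 of 15 (73.3%, interval 44.9 to 92.2) and 11 of 29 (37.9%, interval 20.7 to 57.7) had UMIs of neither coreceptor. The control ones include shallow barcodes of 1718, 1731 and 1762 UMIs, with 14.4% to 14.8% mitochondrial UMIs, all under the endothelial limit. The shallowest Maf LSEC-KO Cd3-positive member had 3188 UMIs, 10.7% of them mitochondrial. Coreceptor detection was not matched for depth. A UMI of the gamma-delta chains Trdc or Tcrg-C was detected in 10 of 15 and 13 of 29, but they outnumbered Trac, Trbc1 and Trbc2 UMIs in 0 and 1 members. Foxp3, the factor of regulatory T cells, was detected in 0 of 15 and 1 of 29 members, which limits members with a UMI and not members that express the gene. Ncr1 or Klrb1c was detected in 6 of 15 and 9 of 29.

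Under the endothelial limit, Trac and Cd8a were higher in the Maf LSEC-KO Cd3-positive members, and Trbc1 and the NK receptor genes Ncr1 and Klrb1c lower. Trac had 25 UMIs in 6 of 12 control members (0, 0.5 and 8 at the lowest, median and highest) and 104 in 18 of 22 Maf LSEC-KO members (0, 4.5 and 14). The level was 404 against 915 CPM, a log2 ratio of 1.18 (0.54 to 1.87), which was 0.21 with the endothelial-rich members. Thinned to 1500 UMIs, 28.1% and 56.3% of members were expected to hold a Trac UMI, and 0.0223% and 0.0951% of endothelial barcodes held 1 unthinned. Cd8a had 10 UMIs in 2 of 12 and 52 in 10 of 22 members (1.5, interval 0.51 to 2.64), while Cd8b1, the partner chain, had 7 UMIs in 1 and 8 in 3 members (-0.68, interval -2.34 to 1.01). Trbc1 stood at 1018 and 493 CPM (-1.05, interval -1.59 to -0.50), a gene whose reads can be mistaken for those of Trbc2.

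Ncr1 had 24 UMIs in 5 of 12 control Cd3-positive members and 5 in 2 of 22 Maf LSEC-KO members, with a highest value of 7 and 3. The level was 388 against 44.0 CPM, a log2 ratio of -3.14 (-4.89 to -1.72). Klrb1c had 28 UMIs in 4 and 25 in 8 members (-1.04, interval -1.88 to -0.21). A UMI of either gene was read in 5 of 12 and 8 of 22 of these members. Rgs1, which dampens chemokine receptor signals and marks resident T cells, had 55 UMIs in 10 of 12 control members (0, 2.5 and 13) and 31 in 12 of 22 Maf LSEC-KO members (0, 1 and 6). Its levels of 889 and 273 CPM gave a log2 ratio of -1.70 (-2.39 to -1.04), with overlapping ranges.

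Of the effector genes, Gzma was level in Cd3-positive members too, at 3751 and 3759 CPM (log2 ratio 0.00, interval -0.23 to 0.24), from 5 of 12 and 9 of 22 members. Gzmb was higher in the Maf LSEC-KO, with 57 UMIs in 9 members against 232 in 15 (0, 2 and 21 against 0, 5 and 43). The levels of 921 and 2042 CPM gave a log2 ratio of 1.15 (0.72 to 1.59), and 0.46 with the endothelial-rich members. Gzma levels in the NK gate were above those of the Cd3-positive gate in both libraries. The chemokine genes Xcl1 (log2 ratio 1.80), Ccl3 (3.55) and Ccl4 (2.60) had most of their Maf LSEC-KO UMIs in 1 member, with 184 of 250, 35 of 43 and 49 of 78 UMIs. Without the top member of each library the ratios were 0.47, 2.12 and 1.66. The highest ratios in the gate, those of Cd74 (5.03) and H2-Ab1 (4.85), came from 1 Maf LSEC-KO member that held 117 of 120 and 51 of 53 UMIs, beside 32 Cd3 UMIs and 24 of Cd209a. The proliferation genes Mki67 and Top2a likewise had 35 of 36 and 29 of 30 control UMIs in 1 member.

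Over all 807 genes measured in the Cd3-positive gate, 27 (3.35%) were at least 2-fold higher in the Maf LSEC-KO and 33 (4.09%) at least 2-fold lower, with a median log2 ratio of -0.06. Of the 169 genes at least 4 times as high as in endothelial barcodes 13 (7.69%) were higher and 12 (7.1%) lower. Of the 81 measured genes of the 14 fixed lists, 8 were higher and 10 lower, with a median of -0.11. The higher ones were Trac, Cd8a, Gzmb, Ccl3, Ccl4, Xcl1, Ikzf2 and Bst2, and the lower ones Trbc1, Cd226, Ncr1, Klrb1c, Klra8, Maf, Irf1, Mki67, Top2a and Tubb5. In the NK gate 3 of 69 list genes were higher (Ccl3, Ccl4 and Bcl2) and 1 lower (Klra9), with a median of 0.01.

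Maf, the gene deleted in LSEC, was read in members of each gate. Endothelial barcodes had 3418 CPM of Maf (chr8:115682942-115707794, minus strand) in the control against 99.8 CPM in the Maf LSEC-KO. Over all members Maf had 212 UMIs in 14 of 29 control and 37 in 17 of 81 Maf LSEC-KO members (log2 ratio -4.17, interval -4.72 to -3.66). The 5 control members above the endothelial limit had 11 to 57 Maf UMIs each, and the 13 Maf LSEC-KO ones 0 to 7. Without them the log2 ratio was -1.89.

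In Cd3-positive members under the limit Maf had 27 UMIs in 7 of 12 control members, of which 19 were in 1 member, and 12 UMIs in 5 of 22 Maf LSEC-KO members, with at most 4 in 1. The log2 ratio was -2.05 (-3.16 to -1.02). In the NK gate Maf had 3 UMIs in 2 of 9 and 10 in 7 of 32 members, a log2 ratio of -0.08. The member with 19 Maf UMIs had 4 endothelial UMIs, 41 Cd3 UMIs and 33 of Nkg7. The part of endothelial RNA in the low Maf counts of the other members was not tested. T cells can express Maf themselves, as c-Maf drives several helper and resident T cell programmes.

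**Figure D5:**
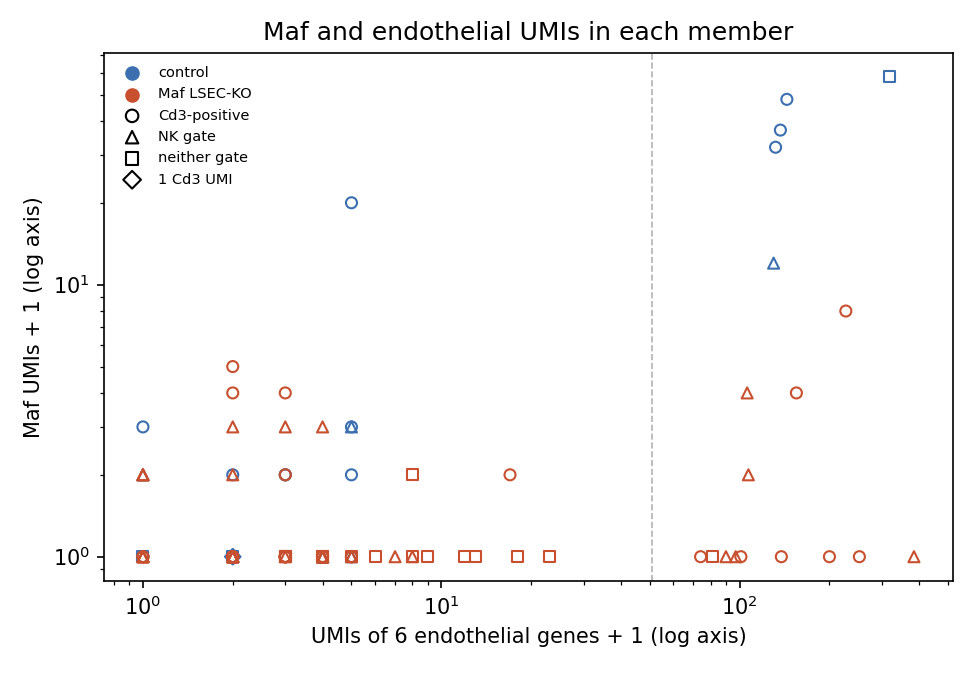
Maf UMIs + 1 of each member against its UMIs of 6 endothelial genes + 1 (both log axes), coloured by library and shaped by gate, with the dashed line at the limit of 50 endothelial UMIs. Right of the line the 5 control members have 11 to 57 Maf UMIs and the 13 Maf LSEC-KO members 0 to 7.

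Over all members, those of neither gate included, of 4056 genes with a mean of at least 50 CPM, 196 (4.83%) were at least 2-fold higher and 158 (3.9%) at least 2-fold lower in the Maf LSEC-KO, with a median log2 ratio of 0.00. Of the 376 genes at least 4 times as high as in endothelial barcodes 12 (3.19%) were higher and 45 (12.0%) lower, with a median of -0.30. The furthest above the control by the fixed naming rule were Cd209a (4.82) and Mcemp1 (4.60), both read almost wholly in members of neither gate, followed by Ccl3, H2-DMa, Plbd1, Itgam, Ctsh, Siglech, Cybb and Cd69 at 1.20 to 0.71. Cd209a had 11 UMIs in 1 control and 980 in 14 Maf LSEC-KO members.

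The furthest below were Gzmc (-5.56), Card19 (-2.20), Cd226 (-1.84), Ass1 (-1.83), Ccl4 (-1.78), Rgs1 (-1.77), Ms4a4c, Wfdc17, Gadd45b and Hopx (-1.43). All 45 control UMIs of Gzmc and 200 of 364 of Ccl4 came from 1 control member, the one with 1 Cd3 UMI, which also held 74 UMIs of Gzmb and 78 of Xcl1. Of these genes Rgs1 was also more than 2-fold lower in the Cd3-positive gate (above), and Cd226, a costimulatory adhesion receptor, had 36 UMIs in 8 of 12 and 33 in 11 of 22 Cd3-positive members (-1.0, interval -1.73 to -0.28).

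Of the 14 lists over all members, 142 genes were measured, 7 were at least 2-fold higher and 17 lower, with a median of -0.23. Over all genes measured the shares were 4.83% higher and 3.9% lower, and over the genes at least 4 times as high as in endothelial barcodes 3.19% and 12.0%, and nothing particular to the lists is read from these counts. Cytotoxic granules and effectors had 13 measured genes and none beyond 2-fold. NK receptors had 21 measured, 0 higher and 3 lower (Klrc1, Klra9 and Cd160), and T cell receptor signalling 12 measured, 0 higher and 2 lower (Rasgrp1 and Cd226). The T cell receptor complex had 1 of 6 lower (Trbc1), coreceptors and costimulation 2 of 5 (Cd8b1 and Cd28), and checkpoints 1 of 3 (Cd160). The Cd8b1 counts include 13 UMIs in 1 control and 7 in 1 Maf LSEC-KO member of neither gate, with 23 and 62 UMIs of Siglech. Without the members of neither gate 1 of 4 measured coreceptor and costimulation genes was lower (Cd28). Chemokines, receptors and homing genes had 1 of 20 higher (Ccl3) and 2 lower (Ccl4 and Cxcr3), transcription factors 1 of 15 lower (Maf) and cycling genes 1 of 8 lower (Mki67). None of 9 naive and memory, 2 regulatory T cell and 2 innate-like T cell genes measured passed 2-fold. Among interferon-stimulated genes 5 of 18 were lower, Isg15, Ifit1, Ifit3, Ifit2 and Irf7, but 230 of 257 control UMIs of Isg15 were in 1 member of neither gate. Without the members of neither gate 0 of 14 were lower and 4 higher (Irf7, Bst2, Rsad2 and Oasl2), where 4.82% and 6.89% of all 4090 genes measured were lower and higher. That set still held members above the endothelial limit. Under the limit, 1 of 7 measured was higher (Bst2) and 1 lower (Irf1) in the Cd3-positive gate, where 3.35% and 4.09% of all genes were. In the NK gate 0 of 1 measured passed 2-fold.

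Immediate early and stress genes, switched on within minutes of tissue handling or stimulation, were the list with most genes above the control. Fos, Fosb, Egr1, Dusp1, Hspa1a and Hspa1b were at least 2-fold higher, 6 of 16 measured where 4.83% of all genes were, with a list median of 0.68 against 0.00. Fos had 35 UMIs in 14 of 29 and 302 in 49 of 81 members (1.46, interval 0.95 to 2.0), and Egr1 13 in 7 and 315 in 41 (2.95, interval 2.15 to 3.87). In endothelial barcodes Fos stood at 97.6 and 286 CPM and Egr1 at 86.1 and 335 CPM in the same direction. In the gates under the endothelial limit 0 of 10 (Cd3-positive) and 0 of 9 (NK) measured genes of the list differed by 2-fold, with medians of -0.02 and 0.01. The part of endothelial RNA in the excess over all members was not tested further.

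Markers of other cell types stood above or below endothelial barcodes depending on the list. The dendritic cell list summed to 314 CPM in control and 1807 CPM in Maf LSEC-KO members, against 23.8 and 5.27 CPM in endothelial barcodes. The Kupffer cell list summed to 36.4 and 91.2 CPM, against 106 and 111 CPM in endothelial barcodes, with Timd4 and Marco at 0 in the members of both libraries, the hepatocyte list to 127 and 92.6 against 245 and 98.9 CPM, and the hepatic stellate cell list to 9.11 and 4.34 CPM. The B and plasma cell list summed to 109 and 110 CPM, above the 6.97 and 33.5 CPM of endothelial barcodes. Its gene Ms4a1 stood at 0 in the members of both libraries. The Kupffer cell list holds Adgre1 and Clec4f, and the B and plasma cell list holds Cd79a. Members could hold at most 1 UMI summed over these genes by the rule, while endothelial barcodes had no such limit. The sums of both lists in members are thus held down in part by the selection. The monocyte and neutrophil list, which holds Ly6c2, summed to 674 and 680 CPM against 30.8 and 52.7 CPM. The LSEC list summed to 5696 CPM in control and 1771 CPM in Maf LSEC-KO members, against 18066 and 4307 CPM in endothelial barcodes. Endothelial RNA, here the genes of the LSEC list and of a pan-endothelial list together, was 0.725% of control and 0.446% of Maf LSEC-KO member UMIs. It was 0.0784% and 0.0818% without the members above the endothelial limit. In endothelial barcodes the same genes were 2.81% (control) and 1.16% (Maf LSEC-KO) of UMIs. A given share in members is thus a larger part of the endothelial level in the Maf LSEC-KO. Mcam, the gene of the protein used for selection, had 1 UMI in each library in Cd3-positive members under the limit, and 1 and 8 in the NK gate.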

How the data were processed

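The 2 libraries (10x Genomics 3′ single-cell, v3.1 chemistry) were 1 control and 1 Maf LSEC-KO, each 1 pool of 3 mice. The authors deposited a filtered matrix of UMI counts per library over 32285 genes of mm10, made with Cell Ranger 6.0.2. The study's later steps (Seurat 5.0.1, subtraction of empty-droplet RNA) are not in these counts. Here UMIs of members were summed per library and given as CPM over UMIs outside mitochondrial and ribosomal protein genes. Intervals are exact: Poisson for levels, conditional for ratios, Clopper-Pearson for shares. A sum of 0 was set to 3 counts for a ratio. Summed UMIs outside the left-out genes were 219625 and 691011 over all members, 61857 and 113605 in the Cd3-positive and 40749 and 144028 in the NK gate, where 3 counts equal 48.5, 26.4, 73.6 and 20.8 CPM.

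Genes were called at a CPM ratio of 2 with a mean of at least 50 CPM (200 CPM in the gates). Genes named were those of the 14 fixed lists (194 genes), the 20 leading over endothelial barcodes, Maf, and the 10 highest and 10 lowest ratios with a mean of at least 100 CPM and 4 times the endothelial level. The same ranking in the gates, at 200 CPM, and the genes named by single members were chosen after the values were seen. The members, lists and markers were chosen with earlier results of these data known. Scrublet (scanpy 1.11.5) marked 0 barcodes with its automatic limit, so as an alternative the highest 3.97% and 4.34% of scores were removed, which took 1 and 8 members. Interval and call code was tested on simulated data of 4056 genes with 200 changed 4-fold: 95.9% of intervals held the true ratio, 99.5% of changed and 1.74% of unchanged genes passed 2-fold. How the intervals hold where the UMIs of a gene gather in single members was not tested. Python 3.11.15, numpy 2.4.6, pandas 2.3.3, scipy 1.17.1, matplotlib 3.10.9 and edgeR 4.0.16 (TMM factors only) were used. Coordinates are those of mm10. Some genes are not reported here.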

Additional observations from a re-analysis of the deposited data

How the results depend on the processing

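No paired analysis was possible because each group has a single library. Alternatives that leave out members of neither gate or with 50 or more endothelial UMIs, or keep 1 gate under that limit, and all alternatives of gene ratios in the gates, were chosen after seeing the data. The shares of members and of gates kept their intervals except the Cd3-positive share of Maf LSEC-KO members, 23.6% when thinned to 1500 UMIs against 32.6% in the control. Genes at least 2-fold higher and lower over all members, 196 and 158, were 120 higher with CPM over all UMIs, 433 and 242 with CPM over genes not higher in endothelial barcodes, 21 and 24 at a mean of 200 CPM, 1384 and 721 with no minimum, 15 and 26 in the NK gate and 27 and 33 in the Cd3-positive gate, where fewer genes were tested. Lower genes also outnumbered higher ones with the mean of CPM per barcode (229 to 167), without the 25% of members with most endothelial UMIs (235 to 209), without members of 50 or more endothelial UMIs (234 to 210), without the highest doublet scores (183 to 156) and with CPM over all UMIs (127 to 120). The median log2 ratio of list genes, -0.2252, was -0.0318 with the mean per barcode, 0.0535 without the 25% of members with most endothelial UMIs, -0.0568 without the highest doublet scores, -0.0581 without members of 50 or more endothelial UMIs, -0.0245 without Cd3-positive members, 0.0141 in the NK gate, -0.106 in the Cd3-positive gate and 0.0322 without the top member of each gene. Endothelial RNA, counted over the LSEC and pan-endothelial lists, was 0.725% and 0.446% of control and Maf LSEC-KO member UMIs. It was 0.0878% and 0.0775% in the median member, 0.660% and 0.328% without the highest doublet scores, and 0.0784% and 0.0818% without members of 50 or more endothelial UMIs.

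Of 380 ratios of 61 named genes under alternatives, 311 stayed within the counting interval, 60 left it in the same direction and 7 of at least 2-fold changed direction. With members of 50 or more endothelial UMIs put back in the NK gate, Ccl3 went from 1.02 to 0.00, and 2 ratios below 2-fold changed sign, Ccl5 from 0.70 to -0.06 and, within its interval, Cx3cr1 from 0.76 to -0.28. Over all members Ms4a4c turned to 0.68 without members of neither gate, 0.93 in Cd3-positive members and 2.35 without the top member, Ccl4 to 1.72 in Cd3-positive members and Wfdc17 to 1.15 without the top member. In the gates, without the top member, Ccl4 turned to -0.38 in the NK gate and Klra8 to 0.12 in Cd3-positive members. The cause was not tested. Few members per gate limit all gate values: 3 counts equal 73.6 CPM in the control NK gate.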

Other observations

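Single members held several signals that belong to no comparison. A control member of neither gate, of 15775 UMIs, had 952 MHC class II and Cd74 UMIs together with 230 of Isg15, 256 of Cxcl10, 389 of Ccl5 and 124 of Ccl4, and only 5 of Klrd1. A Maf LSEC-KO member with 32 Cd3 UMIs also carried 24 UMIs of Cd209a and 236 of MHC class II and Cd74, and it was not among the highest doublet scores. A Cd3-positive control member with 5 Cd3 and 14 Trac, Trbc1 and Trbc2 UMIs held 64 UMIs of Mki67 and Top2a. Among T cell receptor variable genes, Trgv2 had 5 UMIs in 4 of 12 control and 24 in 12 of 22 Maf LSEC-KO Cd3-positive members under the endothelial limit, and Trav16n had 20 UMIs in 2 Maf LSEC-KO members. In the NK gate, Trbc1 was read in 7 of 9 and 15 of 32 members and Trac in 2 and 1. Besides the members, 1 control and 7 Maf LSEC-KO barcodes met the rule in all but the limit on Cd79a, Adgre1 and Clec4f.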
